A study of Bos taurus with 29 samples.

Results

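The glandular epithelium (GE) and the luminal epithelium (LE) of the cow endometrium were compared in animals with low progesterone (P4). The comparison took the 13 samples labelled as glandular or luminal cells with low P4, 7 of GE and 6 of LE, out of 29 samples in the series, and left out the 7 samples with high P4. All came from Holstein cows whose uterus was described as healthy, biopsied at 45 days postpartum by the sample labels, with a plasma P4 limit of 1 ng/mL between the groups. Cells were cut from frozen sections by laser microdissection, and cDNA was made from 2.5 ng of RNA in 10 cycles of amplification, followed by 12 cycles for the library. Of the 9 cows with low P4, 6 gave both epithelia (cows 3, 6, 10, 11, 12 and 13), so that GE and LE were compared within the same animal. Cow 8 gave GE without LE and added nothing to the difference within cows. Stroma (ST) of all 9 low P4 cows served as a reference tissue, and the study's methods allow that ST holds fibroblasts, immune cells and endothelial cells together.

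LE is the sheet of cells that lines the uterine lumen and meets the embryo first, and GE forms the glands that open into that lumen and secrete the fluid on which the early embryo lives. Both derive from the same epithelium in the developing uterus and keep an epithelial programme of junctions and polarity. P4 acts on both tissues through the luteal phase, and here the samples came from cows below the P4 limit. The study describes some of its low P4 cows as still in anoestrus and the others as cyclic and near estrus. The groups used here do not separate these states.

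The deposited tables hold an estimated count and a TPM value (Salmon's abundance scaled by transcript length and library) for each of 37925 transcripts, named by Ensembl identifiers without gene symbols. No table at hand paired these identifiers with genes, so neither the known markers of glandular, luminal, ciliated or stromal cells nor gene groups could be read, and the cell type labels were not checked against markers. Estimated counts summed to 25023722 to 31060024 per library in GE and LE. In a principal component analysis of the 500 most variable transcripts, the first component (33.2% of the variance) placed GE at 1.82 to 45.42 and LE at -49.91 to -15.92, without overlap, and the GE sample nearest to LE was that of cow 13.

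GE and LE differed in 798 of 25363 transcripts tested (3.15%). Of these, 453 were higher in GE (1.79% of those tested) and 345 were higher in LE (1.36%), by edgeR's quasi-likelihood test with the cow as a block, where a call meant a Benjamini-Hochberg adjusted p not above 0.05. A change of at least 2-fold was fitted for 738 of them (2.91% of those tested). The count moved with the cow that was left out. Leaving out cow 3 gave 280 calls (1.13% of those tested), leaving out cow 10 gave 85 (0.341%), cow 11 107 (0.432%) and cow 12 55 (0.221%). Leaving out cow 6 gave 621 (2.51%) and cow 13 647 (2.59%). With the same block, DESeq2 called 4304 transcripts (17%), which included all 798.

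**Figure D1:**
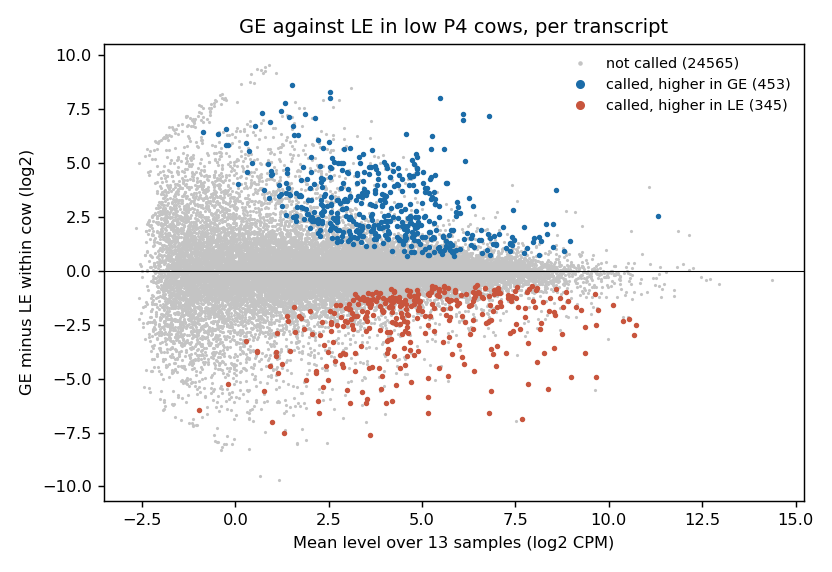
Log2 difference between GE and LE within cows (vertical axis) against the mean level over the 13 samples (log2 CPM, counts scaled to library size, horizontal axis), with 1 point per transcript. The 453 transcripts called higher in GE are blue, the 345 called higher in LE are red and the rest are grey, and few transcripts of low level were called even where the fitted difference was large.

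The 2 sets of called transcripts were described by size of change and level. The fitted log2 difference had a median size of 2.61 among transcripts higher in GE and 2.0 among those higher in LE, against 0.53 over all transcripts tested, and a call itself asks for a large difference. A change of at least 16-fold was fitted for 113 transcripts higher in GE (24.9%) and for 53 higher in LE (15.4%). Over all transcripts tested it was fitted for 1047 (4.13%), in either direction. In LE, 142 of the 453 transcripts higher in GE had a mean below 1 TPM, whereas in GE this held for 42 of the 345 transcripts higher in LE. Of these, 26 of the 142 and 5 of the 42 reached a mean of 10 TPM in the higher tissue. Every library of the lower tissue held at most 3 counts for 3 of the 453 and 1 of the 345. The share over all transcripts tested was not counted. Transcripts higher in LE were more abundant in their own tissue, with a median of 26.2 TPM in LE against 16.5 TPM in GE for the other set, and 75 of them reached 100 TPM against 47. Whether the 2 sets differ in these properties was not tested.

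Most called transcripts moved the same way in each animal. GE was above LE in 6 of 6 cows for 443 of the 453 transcripts higher in GE (7.87% of all transcripts tested did so), and LE was above GE in 6 of 6 cows for 336 of the 345 higher in LE (8.17% of all tested). Every GE library lay above every LE library for 244 of the 453 (1.81% of all tested), and the reverse held for 112 of the 345 (0.978% of all tested). These counts describe the calls and do not test them, since the same libraries made the calls.

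The called transcripts made up a small share of the RNA. The transcripts higher in GE took 2.6% ± 0.898 of TPM in GE (SD, n = 7), 0.582% ± 0.175 in LE (SD, n = 6) and 1.32% ± 0.303 in ST (SD, n = 9). The lowest GE library was that of cow 13, with 1.17%, and the highest was that of cow 12, with 4.05%. The transcripts higher in LE took 4.27% ± 1.39 of TPM in LE, 1.23% ± 0.496 in GE and 1.62% ± 0.493 in ST. Cow 13 was also the lowest of the LE libraries, with 2.68%, and cow 10 was the highest, with 5.99%. GE and LE did not overlap in either share, a direction that the choice of transcripts fixes.

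**Figure D2:**
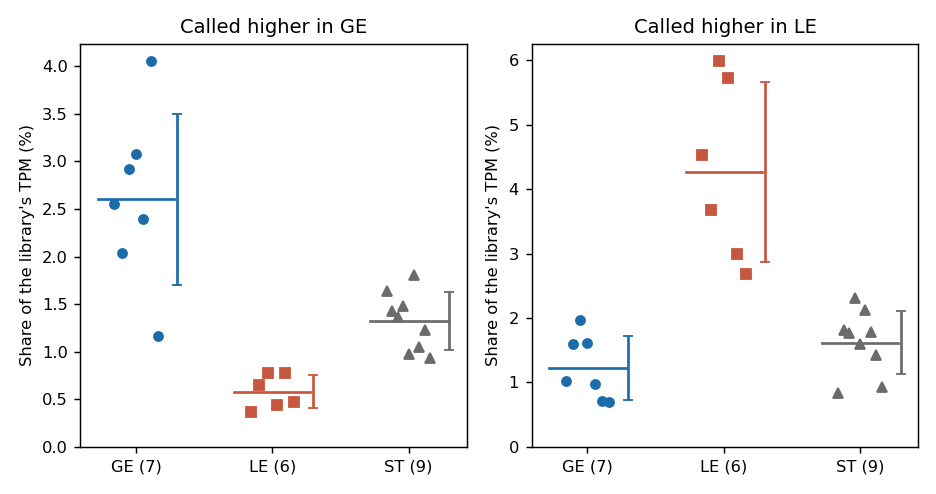
Share of each library's TPM (%) in the transcripts called higher in GE (left) and higher in LE (right), with 1 point per library, the mean as a horizontal line and the SD as a bar. ST, which took no part in the calls, had a mean of 1.32% in the left panel, between LE and GE, and of 1.62% in the right panel.

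The calls were read again in animals that took no part in them. For each of the 6 cows, transcripts were called from the other animals alone and the difference between GE and LE was then measured in the cow left out. Over the 6 cows, 1605 of 1795 such readings (89.4%) had the direction found in the other animals, where 44.0% to 50.5% of all transcripts tested pointed that way in a cow. A transcript can be counted once for each cow, so the readings are not independent. In cows 3, 10, 11 and 12, between 91.7% and 100% kept their direction.

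For these called sets, the differences between the epithelia were smallest in cows 6 and 13. In cow 13, 310 of 387 transcripts higher in GE in the other animals (80.1%) and 218 of 260 higher in LE (83.8%) kept their direction. The median log2 difference of these sets in cow 13 was 1.01 and -1.12, against 2.73 and -2.18 in the other animals. In cow 6, 350 of 366 (95.6%) and 211 of 255 (82.7%) kept their direction, with medians of 1.22 and -1.03 against 3.15 and -2.59. In cows 3, 10, 11 and 12 the medians lay between 2.85 and 3.57 for transcripts higher in GE and between -3.23 and -1.6 for those higher in LE. The sets differ in size between cows, from 23 to 387 transcripts, and whether cows differ in this was not tested. With the 50 transcripts of smallest p in each direction, the medians were 1.59 and -1.49 in cow 6 and 1.53 and -1.71 in cow 13, and cow 10, at -1.72, matched cow 13 for those higher in LE. Over all transcripts tested cow 10 had the smallest median size of the difference (0.46), followed by cow 6 (0.48) and cow 13 (0.53).

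**Figure D3:**
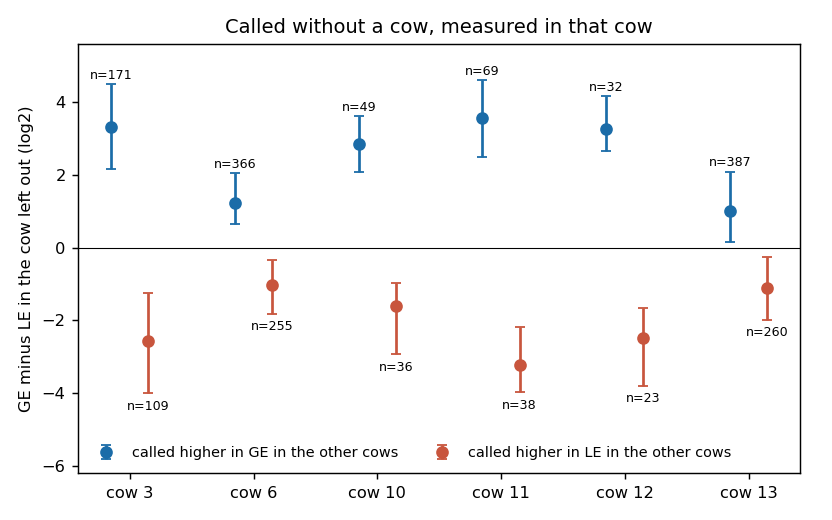
Log2 difference between GE and LE in each cow (vertical axis) for transcripts called from the other animals, higher in GE (blue) or in LE (red), with points at the median, bars from the lower to the upper quartile and the number of transcripts. The medians of cow 6 (1.22 and -1.03) and cow 13 (1.01 and -1.12) lie nearest to 0.

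The GE library of cow 8, which had no LE partner, was read in the same way, but against LE libraries that had made the calls. Transcripts were called without cow 8, and its GE was set against the mean of those 6 LE libraries, so that only the GE side was left out of the calls and part of the likeness is built in. It lay above that mean for 463 of 467 transcripts higher in GE, as did 48.9% of all transcripts tested, and below it for 331 of 345 higher in LE, as did 50.9% of all tested. It was above every LE library for 389 of the 467, as were 16.5% of all transcripts tested, and below every LE library for 252 of the 345, as were 14.0% of all tested.

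Transcripts enriched in ST had levels in the epithelial libraries that varied between animals, and whether these came from ST cells or from the epithelia cannot be told apart. Transcripts enriched in ST were chosen for each cow from the other animals, with a median of at least 20 CPM (counts scaled to library size after TMM normalization) in ST, at least 5 CPM in every ST library, and a median at least 5-fold above that of GE and of LE. This gave 44 to 92 transcripts, whose level was read in the cow left out as a percentage of the ST level of the other animals. In GE the median was 8.95% in cow 3, 40.7% in cow 6, 17.0% in cow 8, 12.6% in cow 10, 17.4% in cow 11, 6.92% in cow 12 and 34.3% in cow 13. In LE it was 4.4% in cow 3, 11% in cow 6, 6.22% in cow 10, 16.7% in cow 11, 7.41% in cow 12 and 45.6% in cow 13. GE of cow 6 and both epithelia of cow 13 were the highest of all on these sets, and ST itself read 60.5% to 104%. The sets differed between cows, with 92 transcripts for cow 13, 90 for cow 6, 80 for cow 11, 76 for cow 8, 61 for cow 3, 56 for cow 10 and 44 for cow 12. Leaving out a cow with high epithelial levels can lower the GE and LE medians and let more transcripts pass. Part of this ranking can therefore come from the choice itself. GE was above LE in 4 of 6 cows, by 4.92 percentage points on average (SD 13.6, two-sided exact permutation test, p = 0.531).

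Cows 6 and 13 were also the animals with the smallest medians for the called sets, and the part of this signal in those medians was not tested. The limits of the choice were set after the data were seen, and 4 folds were looked at. At 4-fold GE was above LE in 5 of 6 cows (6.73 percentage points, SD 14.9, exact permutation p = 0.344) and at 8-fold, with 7 to 21 transcripts, in 3 of 6 (3.19 percentage points, SD 14.2, exact permutation p = 0.875). At 20-fold 1 or 2 transcripts were left, which were at 0 in GE and LE. GE of cow 6 and LE of cow 13 were the highest libraries of their tissue at 4-fold, 5-fold and 8-fold, each read on a set chosen separately for each cow. Without cows 6 and 13, 356 transcripts were called (1.47% of those tested), 224 higher in GE and 132 higher in LE, and 300 of them were among the 798.

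**Figure D4:**
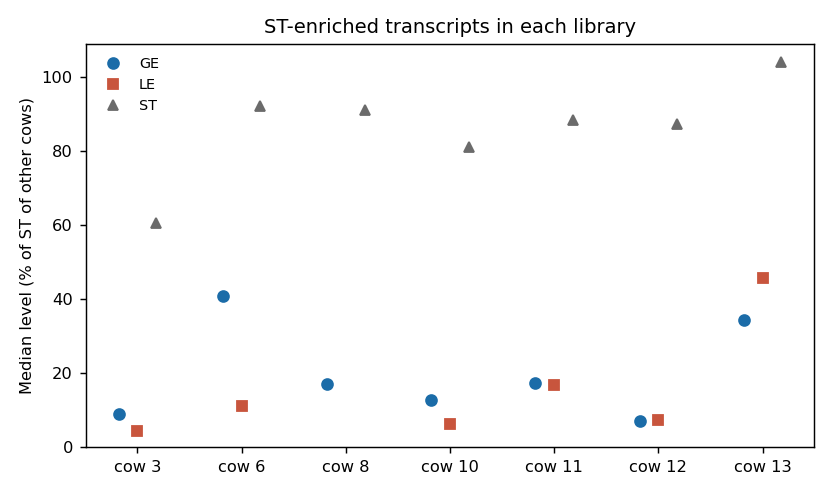
Median level of transcripts enriched in ST (vertical axis, % of the ST level of the other cows) in GE, LE and ST of each cow, with the transcripts chosen without that cow. GE of cow 6 (40.7%) and of cow 13 (34.3%) and LE of cow 13 (45.6%) stand above the other epithelial libraries, but the set of transcripts differs between cows.

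In ST, which took no part in the test, called transcripts were more often the lowest of the 3 tissues than the highest. Of the 453 transcripts higher in GE, 226 (49.9%) had a lower mean CPM in ST than in either epithelium, 80 lay between with ST nearer to LE, 49 lay between with ST nearer to GE, and 98 (21.6%) were higher in ST than in GE. Of the 345 higher in LE, 199 (57.7%) were lowest in ST and 15 (4.35%) were highest in ST. Among all 12389 tested transcripts fitted higher in GE, 33.5% were classed as lowest in ST and 36.4% as highest in ST. Among the 12974 fitted higher in LE these shares were 43.4% and 22.9%. Those totals include 954 and 1280 transcripts whose mean levels ran against the fit and which got no class. The called sets held 0 such transcripts. Over classed transcripts alone the background shares would be higher. The 98 transcripts with the highest level in ST had a median of 50.5 CPM in ST, 28.6 in GE and 5.45 in LE.

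Those 98 transcripts were higher in GE and higher still in ST, and they are set beside the ST signal of each animal. Their median log2 difference between GE and LE was 2.37 in cow 3, 2.01 in cow 6, 2.07 in cow 10, 1.86 in cow 11, 1.81 in cow 12 and 1.0 in cow 13. For the 226 transcripts that were lowest in ST it was 2.87, 1.38, 2.57, 3.03, 2.94 and 2.13 in the same order. Cow 6, with 40.7% of the ST level in GE and 11% in LE, was the one animal in which the 98 had the larger median. Over all tested transcripts fitted higher in GE, those highest in ST had the larger median in cows 6 and 10. It was 0.57 against 0.1 for those lowest in ST in cow 6, and 0.36 against 0.2 in cow 10. In the other animals it was smaller. The 98 and the 226 were called and classed with the libraries of all these cows, cow 6 among them. A link to the ST signal was not tested. Of the 77 transcripts enriched in ST over all low P4 cows, 2 were called higher in GE and 0 higher in LE by edgeR. Of all transcripts tested, 1.79% and 1.36% were called, so these counts are near the background. The 77 were chosen with the same GE and LE libraries, by medians at least 5-fold below ST. They may include transcripts that were not tested. The choice thus fixes part of these counts, and they are no test of the ST signal.

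ENSBTAT00000028684.5, of 480 bases, had the highest mean TPM in GE, 4680, among transcripts called at least 4-fold higher there. TPM accounts for length and so raises a short transcript, and by CPM it was not the highest. Its level in GE was 261 CPM in cow 3, 125 in cow 6, 1320 in cow 8, 1390 in cow 10, 414 in cow 11, 1090 in cow 12 and 177 in cow 13. In LE it was 17.3 CPM in cow 3, 29.0 in cow 6, 32.4 in cow 10, 11.5 in cow 11, 60.5 in cow 12 and 69.8 in cow 13. All GE libraries lay above all LE libraries, and the smallest gaps within an animal were in cows 6 and 13. The log2 difference was 3.74 (SE 0.64, edgeR adjusted p = 0.0279). In ST its mean was 2.17 CPM (SD 2.09, n = 9), below both epithelia.

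ENSBTAT00000074038.1, of 1455 bases, had the largest change among transcripts higher in GE that reached 10 CPM there and did not overlap between the epithelia. It lay between 4.59 CPM (cow 6) and 21.9 CPM (cow 12) in the 7 GE libraries, with a median of 7.89. In LE it had no counts in 5 libraries and 1.79 CPM in cow 12, the animal with the highest GE level. The fitted log2 difference was 8.28 (SE 1.27, edgeR adjusted p = 0.0213), a size that depends on the small count edgeR adds where a library has none. It was 10.97 without cow 12 (adjusted p = 0.0861) and 5.09 without the cow as a block (adjusted p = 0.0546), so its place as the largest change is not firm. ST lay between 0 and 4.97 CPM.

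ENSBTAT00000064987.2, of 655 bases, had the highest mean TPM in LE, 3800, among transcripts called at least 4-fold higher there, and it too was not the highest by CPM. In LE it had 1130 CPM in cow 3, 189 in cow 6, 2460 in cow 10, 1270 in cow 11, 190 in cow 12 and 1880 in cow 13. In GE it had 53.7 CPM in cow 3, 55.7 in cow 6, 160 in cow 8, 692 in cow 10, 106 in cow 11, 89.1 in cow 12 and 236 in cow 13. The tissues overlapped, since GE of cows 10 and 13 was above LE of cows 6 and 12, yet LE was above GE in 6 of 6 cows. The log2 difference was -2.6 (SE 0.47, edgeR adjusted p = 0.0326), and the adjusted p was 0.0674 without the cow as a block.

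ENSBTAT00000085382.1, of 1422 bases, had the largest change among transcripts higher in LE under the same limits. It lay between 63.9 CPM (cow 12) and 805 CPM (cow 3) in LE. In GE it was at 0 in cow 12, at 0.413 CPM in cow 3, 1.22 in cow 11, 4.74 in cow 10, 10.5 in cow 8, 20.4 in cow 6 and 37.2 in cow 13. The log2 difference was -6.86 (SE 1.36, edgeR adjusted p = 0.0415). Leaving out cow 3 gave -5.97, leaving out cow 6 gave -7.77, leaving out cow 12 gave -6.26 and leaving out cow 13 gave -7.64. A fit with no block gave -5.33. ST lay between 0 and 16.9 CPM. Each of the 4 named transcripts kept its direction with any cow left out, but its adjusted p then rose above 0.05 in 4 or 5 of 7 such fits.

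**Figure D5:**
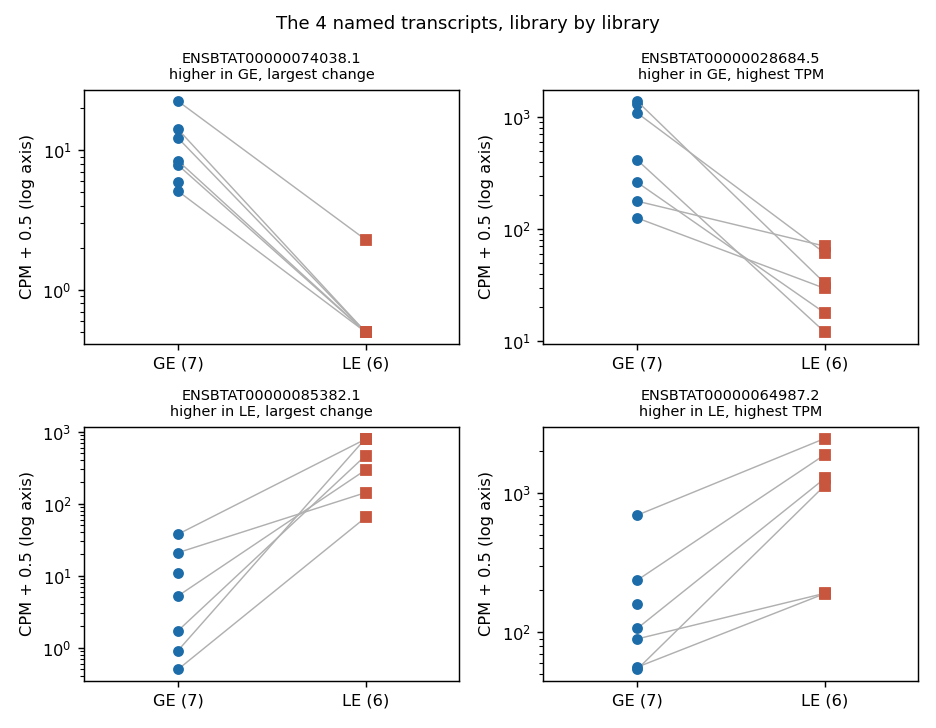
Level of the 4 named transcripts (CPM + 0.5, log axis) in the 7 GE libraries (blue circles) and 6 LE libraries (red squares), with grey lines joining the epithelia of a cow. Each line of the upper panels falls from GE to LE and each line of the lower panels rises.

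For 3 measures of each library, the difference between GE and LE was smaller than the spread between cows. Transcripts of at least 1 TPM numbered 17870 in GE and 17484 in LE, a mean difference within cows of 386.7 (SD 975, n = 6, two-sided exact permutation test, p = 0.375, adjusted p = 0.562). The 100 most abundant transcripts took 31.525% of TPM in GE and 32.96% in LE, a difference of -1.435 percentage points (SD 3.78, exact permutation p = 0.406, adjusted p = 0.562). The length that Salmon discounts from each transcript for the fragment size differed by -8.003 bases (SD 31.1, exact permutation p = 0.562, adjusted p = 0.562). Leaving out 1 cow moved these differences by over 1.5 times, to 54.8 transcripts without cow 3 and 606.4 without cow 13, to -0.43 percentage points without cow 3 and -2.604 without cow 10, and to -1.222 bases without cow 10 and -17.1 without cow 6. These values do not show that the tissues are equal, and 6 cows allow no p below 0.03125. Cow 13 had the fewest transcripts of at least 1 TPM in both tissues (15639 in GE, 16351 in LE). Cow 6 had the most (19386 and 18451). The 100 most abundant took the largest share of TPM in cow 13 (38.02%, 40.84%) and the smallest in cow 6 (23.77%, 27.35%). The discounted length was lowest in cow 13 (348.19 and 361.26 bases). Whether these measures bear on the small medians of cows 6 and 13 for the called sets was not tested.

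The titles of the samples begin with G in cows 3 and 6 and with R in cows 8, 10, 11, 12 and 13, and the labels do not say what the letter means. Cow 8, which gave GE alone, was in the fit of letter R but not in the interaction test. The difference between GE and LE was not called as unequal between the letters for any of 25158 transcripts by edgeR's interaction term (0 at an adjusted p of at most 0.05, smallest adjusted p = 0.824). An unadjusted p under 0.05 was found for 1313 of the 25158, near the share that this limit passes where nothing differs. Within the cows of letter R 169 transcripts were called (0.703% of those tested). Within the cows of letter G, with 2 animals, 0 of 21231 tested were called by edgeR. There 1662 of the 21231 had an unadjusted p under 0.05, a limit that also passes transcripts with no difference.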

How the data were processed

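RNA of microdissected GE and LE (13 samples) and ST (9 samples) of low P4 cows was analysed. The authors quantified paired-end reads with Salmon 1.1.0 against the Ensembl cDNA of ARS-UCD1.2 and deposited unnormalized estimated counts per transcript. TPM, also as deposited by the authors, is Salmon's own scaling of those counts by effective length. DESeq2 1.26.0 is also named in the submitters' processing notes. Reads shared by isoforms or near-identical genes are split by Salmon, so single transcripts are less certain than genes would be.

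Estimated counts were rounded, transcripts reaching 10 counts in 3 or more of the 13 samples were kept, and TMM normalization with edgeR 4.0.16 (R 4.3.3) gave CPM and the quasi-likelihood tests, with the cow as a fixed block and Benjamini-Hochberg adjustment over all transcripts tested. Every CPM value of ST came from a second TMM scaling over all 22 low P4 libraries, applied to every transcript. The CPM classes by level in ST and the sets enriched in ST used this second scaling for all 3 tissues. The SE of a log2 difference is its size over the square root of the F statistic. The pairing comes from the animal number in the sample titles. Deviations from the tissue mean correlated with a median of 0.333 (0.093 to 0.453) over 6 pairs from the same cow. Over 36 pairs from different cows the median was -0.05 (-0.31 to 0.288), so the ranges overlap. Differences in a single cow used log2(CPM + 0.5). Values per library were compared by a two-sided exact permutation test of sign changes over 6 cows, adjusted over 3 measures. No libraries were identical. Depth was 25023722 to 31060024 estimated counts per library, and amplified reads without molecular identifiers are not independent molecules. All results come from the deposited tables, and the edgeR script was checked separately on simulated counts, from which no value is given.

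The members, lists and comparisons were chosen with earlier results of these data known. Named transcripts are, in each direction, the one with the largest change among called transcripts with a mean of at least 10 CPM and no overlap, and the one with the highest mean TPM among those called and changed at least 4-fold. The planned marker and gene lists could not be applied without gene symbols. The measure of ST transcripts, with its folds of 20, 8, 5 and 4, the fit without cows 6 and 13, and the readings of called transcripts in ST and in left-out cows by other settings were added after seeing the data. Alternatives used DESeq2 1.42.0, limma 3.58.1, RLE normalization, other filters, offsets, sample sets and units. Python 3.11.15 with scipy 1.17.1, pandas 2.3.3, numpy 2.4.6 and matplotlib 3.10.9 made the tables and figures.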

Additional observations from a re-analysis of the deposited data

Results flagged for a closer look

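Among 18 groups of GE or LE values looked at, 3 held a sample far from the others by Dixon's test. Chance gives this in about 1 of 20 groups of normally distributed values. CPM values need not be so distributed, so that rate is no measure of how many to await here. The level of ST transcripts in LE was 45.6% of the ST level in cow 13, apart from the 5 other LE libraries, which were read on other sets of transcripts. ENSBTAT00000064987.2 had 692 CPM in GE of cow 10, apart from the 6 other GE libraries, and LE of cow 10 was also the highest of its tissue. ENSBTAT00000074038.1 had 1.79 CPM in LE of cow 12, where the 5 other LE libraries had no counts.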

How the results depend on the processing

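Of the 798 transcripts called, 738 with at least 2-fold change, these numbers moved by over 1.5 times with DESeq2 (4304 and 3176), limma voom with the cow as a random block (2419 and 1986), all 22 low P4 samples (2108 and 1609), limma on log2(TPM + 1) (1774 and 1479), the cows of title letter R alone (169 and 169), those of letter G alone (0 and 0) and without cows 6 and 13 (356 and 356). Leaving out 1 cow gave 55 to 812 calls and 55 to 752 with at least 2-fold change, and at least 4-fold change was reached by 477. Without the cow as a block, 1013 were called, 532 of them among the 798, and the paired fit is the one reported. RLE normalization, other filters, rounding down, offsets for effective length and the 6 cows alone gave 717 to 975. With limma on log2(TPM + 1), 65.1% of calls were higher in GE, against 56.8%. None of the 4 named transcripts changed direction under any alternative run, and each lost its call in 6 to 9 of 20 or 21. The 3 measures per library kept their sign under each alternative. No p fell to 0.05, but with 1 cow left out the exact permutation test allows no p below 0.0625. Leaving out 1 cow gave 54.8 to 606.4 transcripts detected, -2.604 to -0.43 percentage points and -17.1 to -1.222 bases. Sums per gene were not run, since no table pairs transcripts with genes. Fits that leave out 1 of the 6 paired cows have the same number of samples and gave 55 to 647 calls, and the cause was not tested.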
